A study of Rattus norvegicus with 3 samples.

Results

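Respiratory complex I, the NADH dehydrogenase of the inner mitochondrial membrane, was followed through the genes whose symbols start with Nduf in RNA labelled as rat adrenal medulla. Each sample title opens with Multiple Organs, a phrase that the labels leave unexplained. The members were taken by name: of 31099 probe sets on the array, 46 carried a single symbol of that kind, and the brightest probe set of each gene, by its mean log2(intensity + 16) over the 7-day array and 1-day array b, gave 42 genes of the 14217 measured under 1 symbol. They comprise 6 core subunits, 28 accessory subunits, 6 assembly factors (Ndufaf genes) and the pair Ndufa4 and Ndufa4l2. Another 2 probe sets listed an Nduf symbol beside a further symbol and were left out. The series has 1 array of rats kept in the cold for 7 days (7-day array) and 2 of rats kept in it for 1 day (1-day arrays a and b). Cold is the exposure that both groups share, and no array of rats outside the cold was analysed here. The labels give no strain, sex, age or temperature, and they do not say whether an array holds 1 animal or a pool. Nor do they say whether arrays a and b stem from different rats, and their spread could be technical. RefSeq places the 42 genes on 16 chromosomes.

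Complex I takes electrons from NADH, passes them through a flavin and a chain of iron-sulphur clusters to ubiquinone, and pumps protons across the membrane. Core subunits carry this chemistry and have counterparts in bacteria, accessory subunits surround and stabilise them, and assembly factors help to build the enzyme without remaining in it. Several core subunits of the membrane arm are encoded in mitochondrial DNA and have no Nduf name. Chromaffin cells of the adrenal medulla use mitochondrial ATP for the uptake and release of catecholamines, and cells of the adrenal cortex are rich in mitochondria, where part of steroid synthesis takes place.

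1-day array a stood apart from both other arrays. Over the chosen probe sets of the 42 genes, Spearman's rho was 0.992 for the 7-day array with 1-day array b, 0.727 for the 7-day array with 1-day array a, and 0.702 between the 1-day arrays; these are descriptions of arrays, since probe sets of one array are not replicates. Beta-actin control probe sets, whose 3′ over 5′ ratio is a sign of RNA quality, gave 8.87 on the 7-day array, 231 on 1-day array a and 6.11 on 1-day array b. The same ratio for the GAPDH controls was 1.87 on the 7-day array, 5.02 on 1-day array a and 1.79 on 1-day array b. Complex I counts and medians that compare the 7-day array with both 1-day arrays are therefore also given against 1-day array b alone. Limma was not run without array a, since no residual degree of freedom would be left. Both ratios were also higher on the 7-day array than on 1-day array b. The part of RNA quality in the differences between those arrays was not tested. The labelled tissue was checked by its defining markers: of 12 chromaffin cell genes 11 were measured, and Th, the gene of tyrosine hydroxylase, read 224786 on the 7-day array, 79575 on 1-day array a and 193597 on 1-day array b. The chromaffin genes did not move together: 7 of 11 were lower on array a than on array b and 4 were higher. Dbh, one of the 4, read 215877 on the 7-day array, 543430 on 1-day array a and 188289 on 1-day array b. Genes of the adrenal cortex were also bright, with Cyp11a1, the first enzyme of steroid synthesis, at 199562, 156227 and 154155 on the same arrays in that order.

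On the 7-day array, 37 of the 42 complex I genes read higher than on 1-day array b, each by a small amount. The median log2 difference was 0.14, a median intensity ratio of 1.10, and single genes ranged from -0.19 (Ndufb6) to 0.48 (Ndufa5). Over all 14217 genes the 7-day array was above 1-day array b in 53.8%, and over the 2337 genes with a mean log2 level of at least 13 in 52.3%, with medians of 0.04 and 0.01; of the 35 complex I genes at or above that level 31 read higher, with a median of 0.14. That level was chosen after the data were seen. Differences of at least 2-fold between these arrays were found in 0 of the 42 genes, in 14.7% of all genes and in 0.128% of genes with a level of at least 13. The count rests on the authors' scaling. With each array centred on its own median, a shift of 0.18, 15 of the 42 genes read higher, against 35.5% of all genes; at a level of at least 13, 11 of 35 did, against 19.9% of all genes of that level. By this scaling the complex I median became -0.04 where that of all genes was -0.15. With quantile normalisation 37 genes were higher and the median was 0.11, against 7090 of 14217 genes and a median of -0.0004. With the intensity trend between the arrays removed by loess 35 were higher and the median was 0.12. Over all genes 6966 were higher after loess, with a median of -0.01. At a level of at least 13, 31 of 35 complex I genes were higher with quantile normalisation and 30 with loess, against 1188 and 1219 of 2337 genes. This sets 1 array against 1 array and has no replicate check.

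**Figure D1:**
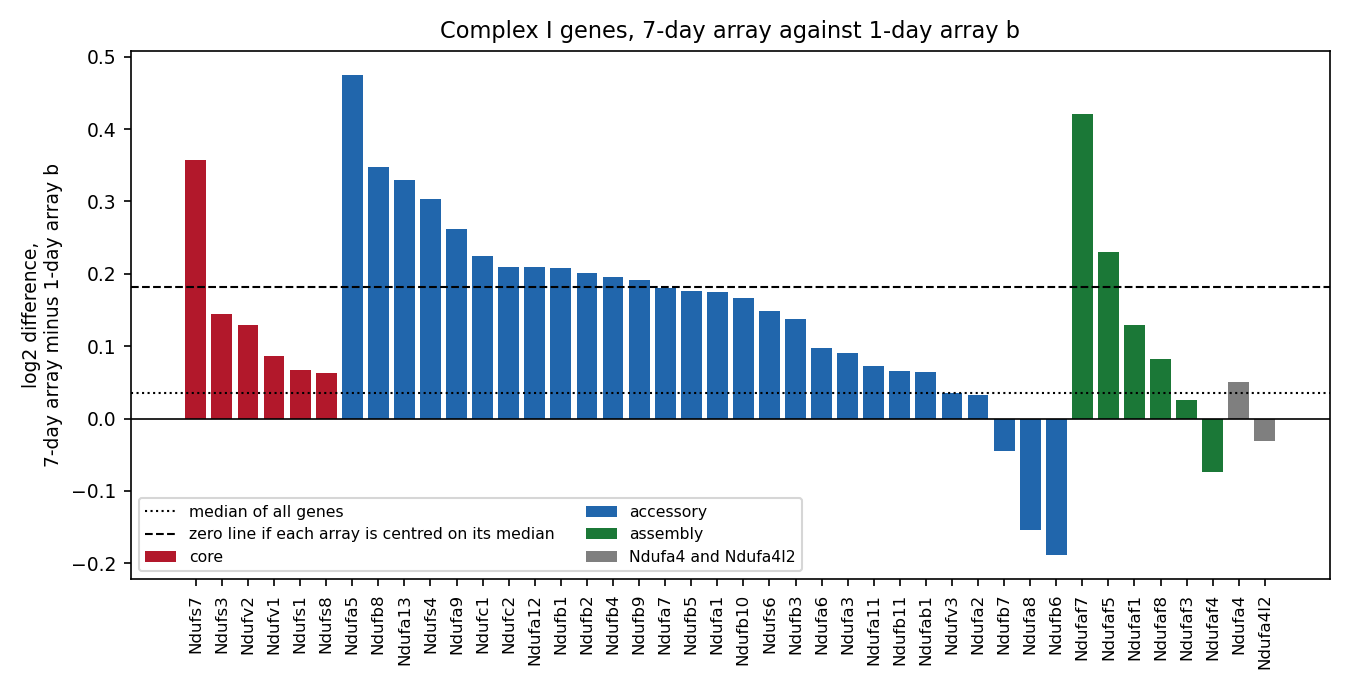
Bars give the log2 difference of each complex I gene, 7-day array minus 1-day array b, sorted within core, accessory, assembly and Ndufa4 genes. The dotted line is the median of all 14217 genes (0.04) and the dashed line the place of zero if each array is centred on its median (0.18); 37 of 42 bars lie above 0 and 15 reach past the dashed line.

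The complex I differences were close together. Their interquartile range was 0.14 on the log2 scale, against 0.27 for genes with a level of at least 13 and 0.55 for all genes, and it was 0.23 for 45 genes of complexes II to V. Within those, it was 0.10 for complex III, 0.17 for complex V and 0.29 for each of complexes II and IV. Complex II has 4 genes here. The complex IV list takes in a pseudogene, Cox6c-ps1, and dim forms such as Cox7b2, at 397 on the 7-day array and 196 on 1-day array b. These lists were not matched to complex I by level. The spread between the 1-day replicates was far wider for the same 42 genes: the SD across genes of the log2 difference was 0.14 for the 7-day array minus 1-day array b and 1.10 for 1-day array a minus 1-day array b. The median gap between the 7-day array and 1-day array b (0.14) was smaller than the median gap between the 1-day arrays themselves (-0.46, array a minus array b). That order turned with quantile normalisation (0.11 against -0.04) and with the loess trend removed (0.12 against -0.01).

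With both 1-day arrays used, no complex I gene passed. In limma, on all 3 arrays, 0 of the 42 genes had an adjusted p under 0.05, as did 0% of the 31042 gene probe sets; 62 of those had an unadjusted p under 0.05, and 0 of the 42 genes did. The lowest unadjusted p among complex I genes was 0.0980, for Ndufa4, with a log2 difference of 1.57 from the mean of the 1-day arrays (SE 0.95) and an adjusted p of 1.00 in limma. Limma's SE for these genes came from the intensity trend of the spread between the 1-day arrays, with 1 residual degree of freedom, and the lone 7-day array was assumed to vary like them. The 7-day array read above both 1-day arrays in 26 of the 42 genes, below both in 2 and between them in 14; over all genes it was above both in 22.7% and below both in 25.8%, and over genes with a level of at least 13 in 41.3% and 9.8%. After median centring 15 of the 42 were above both, against 22.7% of all genes. Against 1-day array a alone 29 of 42 were higher (43.1% of all genes), with a median of 0.61. At a level of at least 13, 28 of 35 complex I genes were higher, against 79.2% of all genes of that level, with medians of 0.85 and 0.79. Set against the averaged 1-day arrays, the complex I median was 0.42 and that of all genes -0.05; at a level of at least 13 the medians were 0.45 for complex I and 0.40 for all genes. The complex I median was 0.94 with median centring, 0.17 with quantile normalisation and 0.17 with the loess trend removed; without 1-day array a the complex I median was 0.14. The summed intensity of the 42 genes was 1123940 on the 7-day array, 770577 on 1-day array a and 1005680 on 1-day array b. In whole tissue, fewer cells of a type and less RNA per cell cannot be told apart.

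**Figure D2:**
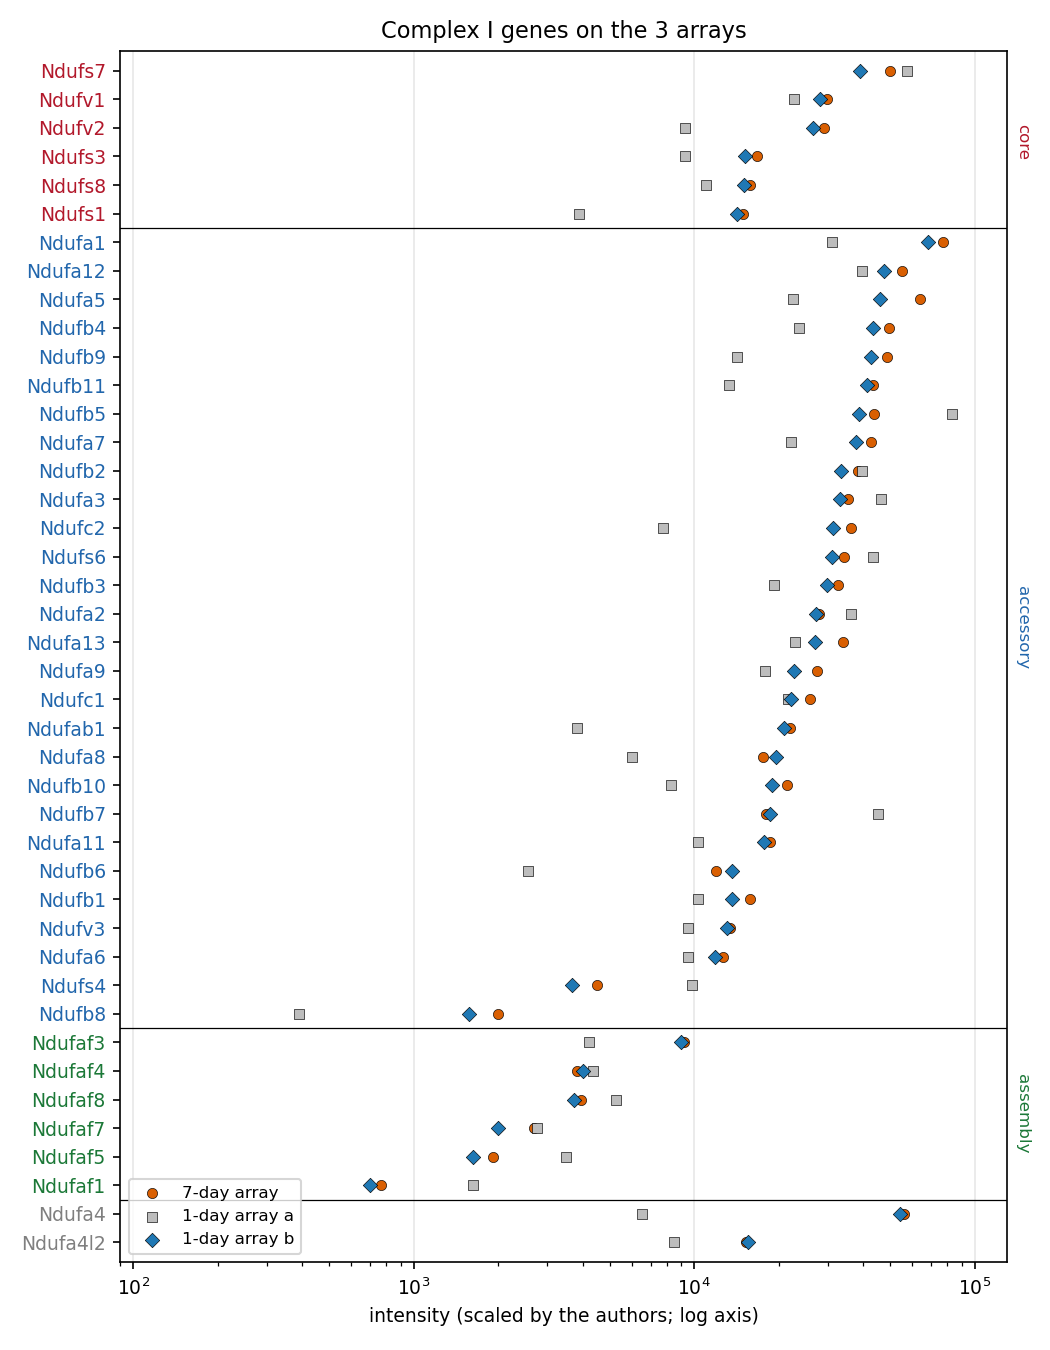
Each row is 1 complex I gene, with its intensity on the 7-day array (circle), 1-day array a (square) and 1-day array b (diamond) on a log axis. The circle lies close to the diamond in each row, within a ratio of 0.877 to 1.39, while squares lie to either side of both; levels of different rows come from different probe sets and are not comparable.

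Promoter letters were read as a further feature that the choice by name did not use. RefSeq promoter windows (assembly GRCr8, 250 bases before to 50 after the gene start) were found for 40 of the 42 genes. The letters of the YY1 motif, AAGATGGCG, searched on both strands, stood in 8 of 40 windows (20%), against 1.93% of 27457 windows of all genes and 2.29% of 19005 windows of protein-coding genes, and 7.89% of 38 windows of complex II to V genes. All 8 matches lay after the gene start and on the strand of the gene, where 0.921% of all windows held one. The NRF1 letters GCATGCGC stood in 4 of 40 windows (10%), against 2.66% of all, 3.23% of protein-coding and 13.2% of complex II to V windows. The GABPA letters CCGGAAG stood in 9 of 40 (22.5%), against 9.22% of all, 11.2% of protein-coding and 34.2% of complex II to V windows. The letters TGACGTCA (CREB) stood in 1 window of 40 (1.91% of all), GGGGCGGGG (SP1) in 2 (10.4% of all) and TCAAGGTCA (ERR) in 0 (0.412% of all); complexes II to V had each of these in 2 of 38. A match is a description of the letters, not a site of binding, and a window with several matches was counted once. Matches of different factors did not overlap in any of the 40 windows.

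The 8 stretches with the YY1 letters are shown because they share both the letters and their place. Each is 30 bases of the gene's own strand, 5′ to 3′, with the match in capitals. The matches begin 3 to 27 bases into the gene, counting the first base as 1. The regions on GRCr8 are chr18:28631839-28631868 (minus strand) for Ndufa2, chr7:115750283-115750312 (minus) for Ndufa6, chr4:161374141-161374170 (minus) for Ndufa9, chr10:105879900-105879929 (plus) for Ndufaf8, chr1:253362896-253362925 (minus) for Ndufb8, chr2:47794891-47794920 (minus) for Ndufs4, chr1:31797413-31797442 (plus) for Ndufs6 and chr7:10110475-10110504 (minus) for Ndufs7.
Ndufa2: tttgctagcaAAGATGGCGgccgcaagccg
Ndufa6: cttccttagcAAGATGGCGgccgcggccag
Ndufa9: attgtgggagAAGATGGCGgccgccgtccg
Ndufaf8: ggcagggcccAAGATGGCGgcgcccacaag
Ndufb8: ggagaaggtgAAGATGGCGgcgtcccgggc
Ndufs4: tgcccacaggAAGATGGCGgcggtctcaat
Ndufs6: ggtcgtcggcAAGATGGCGgcggcgctgac
Ndufs7: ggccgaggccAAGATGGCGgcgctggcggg

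The NRF1 matches lie before the gene start and are again in capitals, in 4 stretches of 30 bases: Ndufa11 at chr9:1637510-1637539 (plus), Ndufa6 at chr7:115750403-115750432 (minus), Ndufaf4 at chr5:43401627-43401656 (plus) and Ndufaf5 at chr3:147961587-147961616 (plus). In Ndufa11, 4 overlapping matches, 2 on each strand, fill bases -97 to -82 before the start.
Ndufa11: gcgctgtGCGCATGCGCATGCGCacaggcc
Ndufa6: tccgcggtagaGCATGCGCatggcagagcc
Ndufaf4: gcagtagtccGCGCATGCGCccctgtggaa
Ndufaf5: agtccctttgGCGCATGCGCacaatagaaa

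The 8 genes with the YY1 letters read higher on the 7-day array than on 1-day array b in 8 of 8 cases, with differences of 0.03 to 0.36 and a median of 0.21; of the 32 without them 28 did, with differences of -0.19 to 0.48 and a median of 0.13. The ranges overlap and no test was made.

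Among the core subunits, 6 of 6 read higher on the 7-day array than on 1-day array b, by a median of 0.11 on the log2 scale (range 0.06 to 0.36), and 5 of 6 read above both 1-day arrays. Ndufv1, which binds NADH and the flavin, read 29771 on the 7-day array, 22625 on 1-day array a and 28032 on 1-day array b. Its iron-sulphur partner Ndufv2 read 29028 on the 7-day array, 9257 on 1-day array a and 26540 on 1-day array b. Ndufs1, the large iron-sulphur subunit of the same NADH-oxidising part, read 14884 on the 7-day array, 3882 on 1-day array a and 14206 on 1-day array b. In these 3 genes the 7-day array was the highest of the arrays and 1-day array a the lowest, and the step between the 1-day arrays exceeded that between the 7-day array and array b.

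The other core genes encode subunits of the part that passes electrons to ubiquinone. Ndufs3, a subunit of that part, read 16775 on the 7-day array, 9239 on 1-day array a and 15169 on 1-day array b. Ndufs8, which carries iron-sulphur clusters, read 15775 on the 7-day array, 10984 on 1-day array a and 15099 on 1-day array b. Ndufs7, which holds the last iron-sulphur cluster before ubiquinone, read 50078 on the 7-day array, 57502 on 1-day array a and 39099 on 1-day array b. Ndufs7 thus had the largest difference from array b among the core genes (0.36), yet it was the core gene in which the 7-day array lay between the 1-day arrays. Centred on the array medians, it was 1 of 6 core genes above 1-day array b (0.18), and the core median was -0.07.

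Accessory subunits gave a median difference of 0.18 between the 7-day array and 1-day array b, with 25 of 28 higher, and 19 of 28 above both 1-day arrays. With median centring 12 of 28 were higher and the median was -0.01. Ndufa5, of the arm that reaches into the matrix, had the largest difference from array b (0.48): it read 63894 on the 7-day array, 22441 on 1-day array a and 45963 on 1-day array b. Ndufb8, of the membrane arm, read 2005 on the 7-day array, 390 on 1-day array a and 1573 on 1-day array b, a difference of 0.35 from array b. Ndufa13, also known as GRIM-19, read 33841 on the 7-day array, 22892 on 1-day array a and 26937 on 1-day array b (0.33). For these 3 genes the 7-day array was above both 1-day arrays, and their differences from array b remained positive after median centring (0.29, 0.17 and 0.15).

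Ndufs4 is a subunit of the NADH-oxidising part whose loss causes Leigh syndrome in humans. It read 4519 on the 7-day array, 9798 on 1-day array a and 3660 on 1-day array b, a difference of 0.30 from array b that lies inside the gap between the 1-day arrays. Ndufa9, of the ubiquinone-binding part, read 27316 on the 7-day array, 17834 on 1-day array a and 22779 on 1-day array b (0.26). A second, dimmer Ndufa9 probe set read 450, 377 and 279 on the same arrays in that order, a difference of 0.66 from array b.

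The accessory genes that read lowest relative to 1-day array b were Ndufb6, Ndufa8 and Ndufb7, which were also the 3 of 28 with a negative difference. Ndufb6, of the membrane arm, read 11966 on the 7-day array, 2552 on 1-day array a and 13641 on 1-day array b (-0.19). Ndufa8, which faces the intermembrane space, read 17662 on the 7-day array, 6009 on 1-day array a and 19652 on 1-day array b (-0.15). Ndufb7, on the same side of the membrane, read 17993 on the 7-day array, 45330 on 1-day array a and 18562 on 1-day array b (-0.04), and was the accessory gene below both 1-day arrays. These 3 kept their negative sign with quantile normalisation (-0.16, -0.14 and -0.04) and with the loess trend removed (-0.17, -0.15 and -0.04).

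Next above these were Ndufa2, at 27917 on the 7-day array, 36127 on 1-day array a and 27289 on 1-day array b (0.03), and Ndufv3, at 13440, 9530 and 13112 (0.04). Ndufv3 is measured by a second probe set that read 759 on the 7-day array, 418 on 1-day array a and 1288 on 1-day array b, a difference of -0.75 with the opposite sign. Ndufa7 also had probe sets of opposite sign against array b, 0.18 on the brighter and -0.08 on the dimmer. The accessory genes outside these extremes ranged from 0.06 (Ndufab1) to 0.22 (Ndufc1) against array b. Of 4 complex I genes with a second probe set, Ndufa9 and Ndufaf7 agreed in sign. RefSeq lists pseudogenes named after 18 of the 42 genes, up to 7 for Ndufb4, and whether a probe set also reads such copies was not tested.

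**Figure D3:**
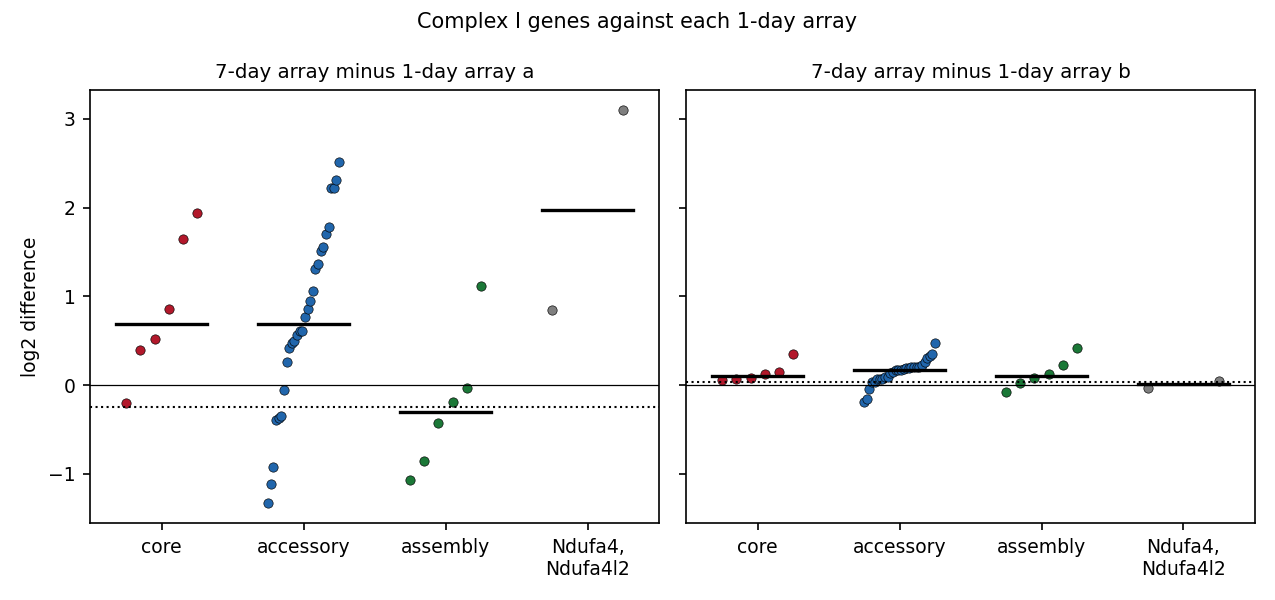
Points are complex I genes by class, sorted within each class, with the log2 difference of the 7-day array from 1-day array a (left) and from 1-day array b (right); thick lines are class medians and dotted lines the medians of all genes (-0.24 and 0.04). Against 1-day array a the accessory genes span -1.33 to 2.51, and against 1-day array b -0.19 to 0.48.

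Assembly factors read higher on the 7-day array than on 1-day array b in 5 of 6 genes (median 0.11). Against 1-day array a, 5 of 6 were lower, with a median of -0.30. Over all 14217 genes, 8092 were lower than on 1-day array a, with a median of -0.24. Ndufaf7, a methyltransferase of the mitochondrial matrix, read 2677 on the 7-day array, 2746 on 1-day array a and 1995 on 1-day array b, a difference of 0.42 from array b; its dimmer probe set gave 0.10. Ndufaf5, which hydroxylates an arginine of Ndufs7, read 1913 on the 7-day array, 3478 on 1-day array a and 1629 on 1-day array b (0.23). Its partner Ndufaf8 read 3945 on the 7-day array, 5286 on 1-day array a and 3727 on 1-day array b (0.08). In these 3 genes the 7-day array lay between the 1-day arrays.

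Ndufaf1, a member of the assembly complex that helps to build the membrane arm, read 766 on the 7-day array, 1627 on 1-day array a and 699 on 1-day array b (0.13, and -0.02 with the loess trend removed). Ndufaf3 and Ndufaf4 act together early in assembly. Ndufaf3 read 9171 on the 7-day array, 4217 on 1-day array a and 9008 on 1-day array b (0.03), and was the assembly gene above both 1-day arrays. Ndufaf4 read 3831 on the 7-day array, 4369 on 1-day array a and 4032 on 1-day array b (-0.07), and was the assembly gene below both. With median centring 2 of 6 assembly genes were above 1-day array b and their median was -0.08.

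Ndufa4 and Ndufa4l2 carry complex I names, but Ndufa4 is now known as a subunit of complex IV and Ndufa4l2 is its relative. Ndufa4 read 56025 on the 7-day array, 6530 on 1-day array a and 54096 on 1-day array b. Ndufa4l2, which is induced by low oxygen, read 15289 on the 7-day array, 8481 on 1-day array a and 15621 on 1-day array b. Their differences from 1-day array b were 0.05 and -0.03, and without them 36 of 40 genes were higher on the 7-day array.

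The gap between the 1-day arrays differed widely among complex I genes, from -3.05 for Ndufa4 to 1.42 for Ndufs4 (log2, array a minus array b). Array a was at least 2-fold below array b in 14 of 42 genes (18.7% of all genes) and at least 2-fold above it in 5 (34.3% of all genes). At a level of at least 13 these were 13 and 2 of 35 complex I genes, against 40.9% and 3.89% of all genes of that level. The lowest accessory genes were Ndufab1, the mitochondrial acyl carrier protein, at 3827 on array a and 20946 on array b, then Ndufb6 (-2.41) and Ndufc2 (-2.01). The highest were Ndufs4, Ndufb7 (1.29) and Ndufb5, at 83326 on array a and 38838 on array b (1.10). Assembly genes were higher on array a in 5 of 6 cases and core genes in 1 of 6, against 8261 of all 14217 genes. Class and level overlap here, since the assembly genes other than Ndufaf3 all lay below log2 13, and the 2 cannot be told apart. Of the 7 complex I genes below log2 13, 6 read higher on array a. The accessory genes among them split, with Ndufb8 at -1.97 and Ndufs4 at 1.42. Of the 35 genes at or above log2 13, 7 read higher on array a, with a median of -0.71 against -0.77 for all 2337 genes of that level. Across the 42 genes the Spearman correlation of the gap between the 1-day arrays with the mean log2 level on the 7-day array and array b was -0.21. Across all genes it was -0.66, a description of points that share arrays. With quantile normalisation the complex I median of the gap was -0.04, with the loess trend removed -0.01, and with median centring -1.85.

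The other respiratory complexes also mostly read higher on the 7-day array than on 1-day array b. Of 45 genes of complexes II to V, 36 did, with a median of 0.14, and 23 read above both 1-day arrays. The median was 0.17 for 4 genes of complex II, 0.17 for 8 of complex III, 0.10 for 17 of complex IV and 0.15 for 16 of complex V. The highest were Cox7b2 (0.96) and Cox6a2 (0.62), forms of complex IV subunits found in testis and in muscle, and the lowest Cox4i2 (-0.52), a form of a complex IV subunit known from lung, and Sdhd (-0.33), a membrane anchor of complex II. Cox6a2 was dim on both compared arrays, at 25.5 on the 7-day array, 1204 on 1-day array a and 11.0 on 1-day array b. Sdha, the flavoprotein of complex II, read 69266 on the 7-day array, 12607 on 1-day array a and 56701 on 1-day array b. With median centring 20 of the 45 were higher and their median was -0.04. In limma 0 of the 45 passed, and 0 had an unadjusted p under 0.05. No difference between complex I and these complexes was tested.

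**Figure D4:**
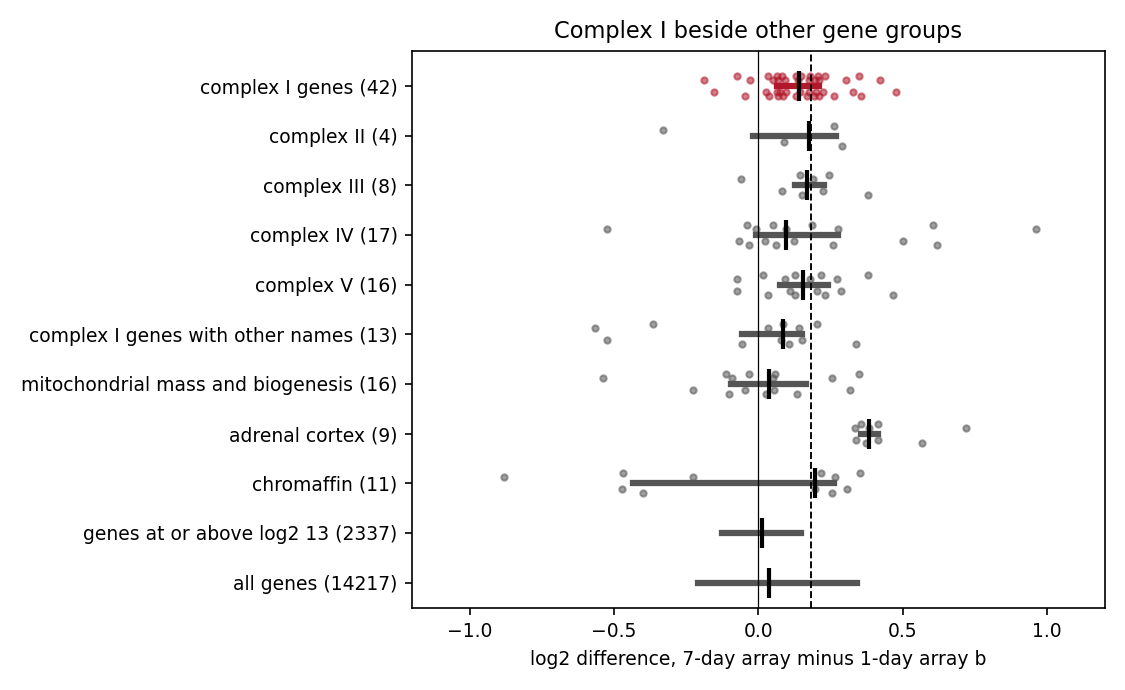
Dots are genes (not drawn for the 2 largest groups), thick bars the interquartile range and ticks the median of the log2 difference, 7-day array minus 1-day array b; the number of genes is in brackets and the dashed line is the place of zero after median centring. Medians are 0.14 for complex I, 0.38 for adrenal cortex markers and 0.04 for all genes; genes beyond 1.2 on either side are not drawn, among them Tmem70 (2.80) and Ppargc1a (3.62, from a value on 1-day array b below the pseudocount).

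Complex I genes with other names had an interquartile range of 0.21. Of 22 listed, mostly assembly factors and the subunits of mitochondrial DNA, 13 were measured, and 9 of them read higher on the 7-day array than on 1-day array b, with a median of 0.08; 0 passed limma, and 0 had an unadjusted p under 0.05. The listed subunits of mitochondrial DNA were all among the genes not measured, so these values do not cover them. Of the 13 measured genes the highest were Tmem70, an assembly factor of complexes I and V, at 1247 on the 7-day array, 3237 on 1-day array a and 165 on 1-day array b, and Ecsit (0.34), a partner of Ndufaf1. The lowest were Foxred1 (-0.57), an assembly factor, and Lyrm4 (-0.52), which acts in iron-sulphur cluster synthesis. Tmem70 lay between the 1-day arrays, and its difference from array b was larger than that of each Nduf gene.

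Among genes of mitochondrial mass and biogenesis 16 of 17 listed were measured and 9 read higher on the 7-day array than on 1-day array b (median 0.04). Cs, the citrate synthase often used as a measure of mitochondrial content, read 23729 on the 7-day array, 3016 on 1-day array a and 22792 on 1-day array b, and Vdac1, the outer membrane channel, 36480, 17856 and 29257. Ppargc1a, a coactivator of mitochondrial genes that cold induces in brown fat, read 323 on the 7-day array, 72.2 on 1-day array a and 11.6 on 1-day array b. The last value is below the pseudocount of 16 and whether it stands above background is not known, so the size of its difference (3.62) is uncertain. Hspd1, the mitochondrial chaperone, was the next highest (0.35). Gabpa (-0.54), which encodes a factor whose letters were searched above, and the DNA polymerase gene Polg (-0.23) were the lowest. In limma 0 of the 16 passed, and 0 had an unadjusted p under 0.05.

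Markers of the adrenal cortex also read higher on the 7-day array than on 1-day array b. Of 11 listed genes 9 were measured, and 9 of 9 did, with a median of 0.38 (0.20 with median centring, 0.18 with quantile normalisation). Their summed intensity was 1349000 on the 7-day array, 1914220 on 1-day array a and 1029680 on 1-day array b, and the defining cortex gene Star was far from 0 on each array, at 277066, 602316 and 208111. Cyp17a1, with the largest difference of the cortex list (0.72), was dim, at 119, 70.5 and 66.0 on the same arrays in that order. Whether Cyp17a1 stands above background on these arrays is not known, so its place in the count of 9 is uncertain. Chromaffin markers were higher in 6 of 11 (median 0.20), with sums of 1206080, 2393250 and 1048520. With median centring 6 of 11 chromaffin markers were higher (median 0.02), and with loess 6 of 11 (median 0.08). With quantile normalisation 2 of 11 were higher, 7 were lower and the median was -0.14. Fat markers were higher in 5 of 7, with Ucp1, the uncoupling protein of brown fat, at 35.1, 156 and 31.1, and sums of 19031, 12332 and 16612. Cidea, which coats lipid droplets, made up most of the fat sums, and the other 6 markers summed to 790, 6041 and 1184; Plin1 (-2.39) and Fabp4 (-2.81) were lower than on array b, and Lep (2.58) higher. None of these markers was at 0, and the part of these cells in the complex I result was not tested.

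Sums of the remaining marker lists are given on the 7-day array, 1-day array a and 1-day array b in that order. Muscle markers (7 of 8 measured, Cox6a2 and Cox7a1 of complex IV among them, 5 higher than on array b) summed to 3483, 9240 and 2565, and liver markers (4 of 4, 3 higher) to 1920, 2502 and 1256. Endothelial markers (3 of 4 measured, 3 higher) summed to 30390, 32214 and 28670, and Schwann and sustentacular markers (3 of 5 measured, 2 higher) to 6241, 9416 and 5365. Macrophage and lymphocyte markers (5 of 6 measured, 1 higher) summed to 7775, 5844 and 8972, and red blood cell markers (2 of 3 measured, 2 higher) to 29047, 5501 and 27914. Muscle, liver, Schwann and endothelial sums were highest on 1-day array a. Without the brightest gene of its list, the Schwann sum was 1589, 6733 and 1954 and the red blood cell value 701, 1566 and 642.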

How the data were processed

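Adrenal medulla RNA of rats was hybridised to 3 one-colour oligonucleotide arrays, 1 after 7 days and 2 after 1 day in the cold, grouped by the sample titles. The authors deposited linear intensity values, summarised by probe set and scaled; the 2% trimmed mean is 2501 on each array. The software is not given in the sources used. Such scaling hides differences in total RNA. Values were turned into log2(intensity + 16), which shrinks differences of dim probe sets. Controls (57 probe sets) were removed and no intensity filter was set. With so few arrays, their number limits precision.

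Symbols came from the platform annotation (20826 probe sets with 1 symbol, 436 with several, 9780 with none), and list genes with newer names were matched by Entrez identifier through the RefSeq table of assembly GRCr8. Each gene was represented by its probe set with the highest mean over the 7-day array and 1-day array b. Limma 3.58.1 in R 4.3.3 (lmFit, then eBayes with trend, a two-sided test, Benjamini-Hochberg over 31042 probe sets, threshold 0.05) was also run on simulated data. The simulated noise followed the gap between the 7-day array and 1-day array b, not the wider spread between the 1-day arrays. That run therefore cannot show what size of change limma could find in these data. The other comparisons are counts and medians beside those of all genes. Alternatives were pseudocounts of 1 and 64, quantile normalisation, median centring, loess (span 0.5), filters, other choices of probe set or symbol, limma without a trend or robust, and leaving out each 1-day array.

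Members, lists and rules were chosen with earlier results of these data known. Text names the core, assembly and Ndufa4 genes, the 5 highest and 5 lowest accessory genes against 1-day array b, the 3 highest and 3 lowest in the gap between the 1-day arrays, genes whose probe sets disagree in sign, and the 2 highest and 2 lowest of each other mitochondrial list. Sdha, Cs, Vdac1, Cox7a1, Cox6c-ps1, Cidea, Plin1, Fabp4, Lep and the single cell markers were named after their values were seen. Figures were drawn with matplotlib 3.10.9 in Python 3.11.15.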

Additional observations from a re-analysis of the deposited data

How the results depend on the processing

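Of 109 values recomputed under alternative settings, 95 kept their sign and moved by less than the spread between the 1-day arrays (counts by less than 1.5 times), 10 moved further and 4 changed sign. That spread is wide: the median against the averaged 1-day arrays, 0.42 as reported, was 0.17 with quantile normalisation, 0.17 with loess and 0.14 without 1-day array a. Some settings left the 42 genes and their probe sets as they were, so their counts and medians could not move. These were the filter on the 7-day array and 1-day array b, the probe set choice over all 3 arrays, and current symbols. The tally of 95 is therefore not a measure of robustness. The 4 that changed sign came from centring each array on its median, where the median difference between the 7-day array and 1-day array b became -0.0406 for complex I, -0.0739 for core, -0.00595 for accessory and -0.0762 for assembly genes. That setting also left 15 genes higher than 1-day array b, 15 above both 1-day arrays and 1 below both, and moved the median against the mean of the 1-day arrays to 0.94. The median gap of 1-day array a to array b was -1.85 with centring, -0.0430 with quantile normalisation and -0.0141 with loess. Centring subtracts 0.18 from each difference to array b; the cause of that shift was not tested. Leaving out 1-day array a or b left 37 or 29 genes higher and 5 or 13 lower, with medians of 0.14 and 0.61. Among members at or above log2 13, a setting added after seeing the data, 1 of 35 was below both 1-day arrays. Limma called 0 complex I genes under each of its 11 alternatives. Limma without a 1-day array was not run, since no residual degree of freedom is left. No paired analysis was possible because the 7-day group has 1 array. On both filters on dim probe sets 42 of 42 complex I genes passed.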
